A study of Marchantia polymorpha with 12 samples.

Results

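The genes described here are 83 autosomal genes of the liverwort Marchantia polymorpha whose transcripts were more abundant in the female wild-type strain Tak-2 than in the male wild-type strain Tak-1. They were chosen from the measured levels of the wild types. A gene on chromosomes 1 to 8 was taken when its mean over the 3 Tak-2 libraries was at least 1 and under 1000 CPM (estimated counts of a gene scaled to a library total of 1000000) and at least 4 times its mean over the 3 Tak-1 libraries. The table held 18336 genes, of which 18134 were autosomal and 11796 were autosomal with a Tak-2 mean in that range. The rule took 0.712% of these 11796 genes. It then left out 1 gene, Mp3g10820, by name, so 83 remained. Since the wild types chose the genes, every difference between Tak-2 and Tak-1 given for them is a description and carries no test.

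RNA was sequenced from whole thalli with their rhizoids, 3 weeks after gemmae were laid on cellophane over agar under white light with long days, in 3 libraries for each of 4 groups. The groups were the male wild type Tak-1, the female wild type Tak-2, the male line Mpfer-1, labelled a knockdown of the receptor-like kinase gene MpFER (the single FERONIA homolog), and the female line labelled Mpmri-1, a knockdown of the kinase gene MpMRI (the MARIS homolog) by its label. Rhizoids of both lines stay short and burst, and the design pairs each line with the wild-type strain of its sex. The labels give neither the construct, nor the strain in which a line was made, nor whether a line is 1 clone, nor whether replicates A, B and C were grown as separate cultures, so p-values measure the spread among these libraries. Strain and sex cannot be told apart between the wild types, and between the mutant lines the targeted gene, the line and the sex cannot be told apart.

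Marchantia is a haploid plant for most of its life, and its sex is set by a single chromosome: females carry a U and males a V chromosome. The U-linked gene MpBPCU starts female development, which also runs through autosomal regulators. Gametangiophores, the stalked sex organs, form when light rich in far-red is added, and thalli grown under white light are usually vegetative.

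Library totals ran from 25548031 to 35313206 estimated counts. Reads of the V chromosome, other than those of the gene MpVg01240 described further on, summed to 1662 to 2240 CPM in male libraries and 61.2 to 158 CPM in female ones, and MpBPCU had 0 counts in both male groups against a mean of 22.2 CPM in Tak-2 and of 13.7 CPM in the line labelled Mpmri-1. MpFER (Mp4g15890) had a mean of 170 ± 14.3 CPM in Tak-1 and 111 ± 9.65 CPM in Mpfer-1 (SD, n = 3). MpMRI (Mp7g17560) had 255 ± 6.05 CPM in Tak-2 and reached 613 ± 85.8 CPM in the line labelled Mpmri-1 (SD, n = 3), 2.40 times the wild type, against the label, and every direction given below for that line is that of the libraries so labelled. The thallus marker MpRBCS, the small Rubisco subunit and the 1 photosynthesis marker found by symbol, lay at 280 to 306 CPM in Tak-1, 133 to 184 CPM in Tak-2, 88.3 to 102 CPM in Mpfer-1 and 168 to 234 CPM in the line labelled Mpmri-1. Of the male organ markers, MpPRM (protamine) and MpLC7 had at most 5 counts in any group and MpDUO1 0.755 to 0.861 CPM as a group mean, while MpCEN1 had a mean of 73.4 CPM in Tak-1 and 96.4 CPM in Tak-2. The summed male organ list lay at 67.7 to 81.3 CPM in Tak-1, 82.9 to 84.5 CPM in Mpfer-1, 93.1 to 102 CPM in Tak-2 and 37.4 to 60.6 CPM in the line labelled Mpmri-1, with no overlap between the groups. Of the other markers, MpRKD, an egg-cell regulator, had group means of 82.2 to 153 CPM, and the gemma marker MpKAR had 23.1 to 37.7 CPM. MpGCAM1, also of gemmae and their cups, had mean CPM of 0.369 in Tak-2, 2.63 in Tak-1, 4.97 in Mpfer-1 and 2.86 in the line labelled Mpmri-1. The part of these markers in the results was not tested. None of these markers was among the 83 genes, and 0 symbols of the rhizoid and germ cell lists were found.

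Most of the 83 genes had low CPM even in the female strain. CPM are not scaled by transcript length, so an order of CPM between genes is one of counts. The median Tak-2 mean was 3.55 CPM. In Tak-2, 26 genes lay between 1 and 2 CPM, 29 between 2 and 10 CPM, 24 between 10 and 100 CPM and 4 between 100 and 1000 CPM. The median ratio of Tak-2 to Tak-1 was 6.76 over the 82 genes with counts in Tak-1, with 50 genes under 8 times and 33 at 8 times or more. In 82 genes every Tak-2 library was above every Tak-1 library, and the exception was Mp5g21660. The rule chose genes for such an order, so nothing is read from this count. In whole thalli, fewer cells of a type and less RNA per cell cannot be told apart.

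The threshold cut through a continuous range of ratios. Just inside it lay MpMTPSL19 (Mp4g04770), named as a microbial-type terpene synthase-like gene, at 4.04 times, Mp8g02950 at 4.11 times and Mp3g08290 at 4.13 times. Just outside lay the peroxidase gene MpPOD158 (Mp7g17080) at 3.996 times, the dehydrin gene MpDHN2 (Mp4g06390) at 3.99 times and Mp4g20740 at 3.96 times.

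A symbol was known for 18 of the 83 genes. They are spread over many families. Among these are late embryogenesis abundant and dehydrin proteins, dirigent proteins, cupins, an expansin, a peroxidase, a proteinase inhibitor, a cytochrome P450, a terpene synthase-like enzyme, a carbohydrate esterase, an auxin carrier and a transcription factor of the AS2/LOB-domain family. By family words in the symbols, the dirigent family had 2 of its 33 genes in the expression range among the 83. Peroxidases had 1 of 97, cytochromes P450 1 of 72, late embryogenesis abundant genes 1 of 35, expansins 1 of 20, pathogenesis-related genes 1 of 13 and terpene synthases 1 of 11. The late embryogenesis abundant count rests on the word LEA in the symbol and leaves out the dehydrin gene MpDHN1. Polyphenol oxidases, glycosyltransferases, lipoxygenases, ABC transporters, receptor-like kinases, carbohydrate-enzyme families GH and GT, NLR genes and the transcription factor families MYB, bHLH, WRKY, ERF, bZIP and C2H2 had 0.

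**Figure D1:**
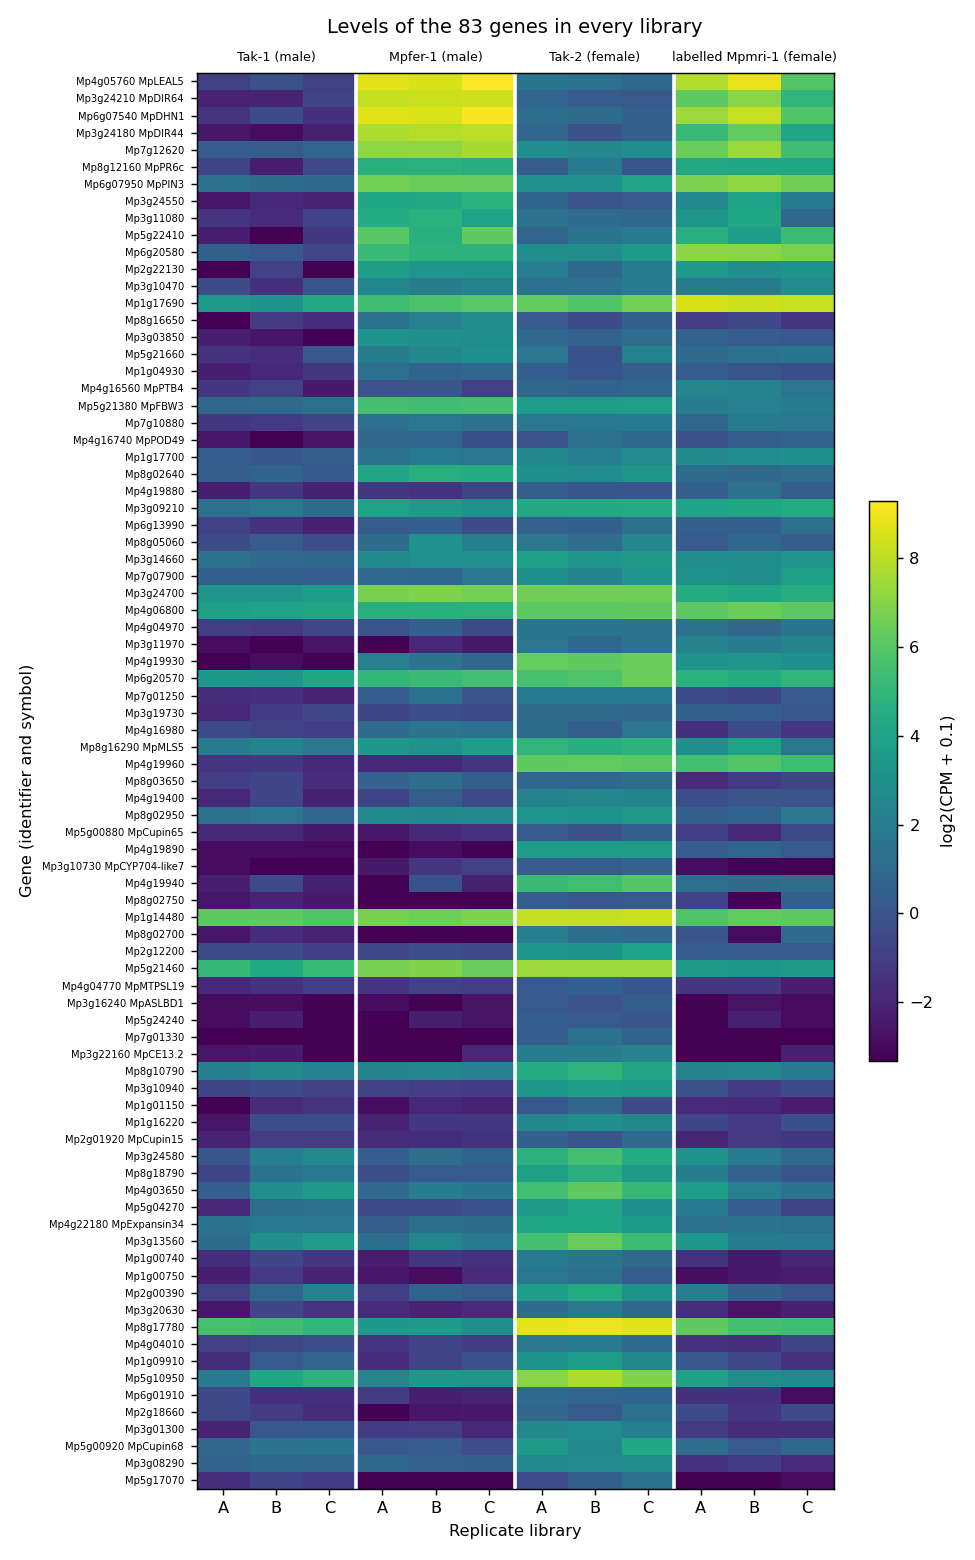
Level of each of the 83 genes, as log2(CPM + 0.1) by colour, in the 12 libraries, with 1 row per gene and columns grouped by strain or line. Rows run from genes far above both wild types in the mutant lines, such as MpLEAL5, to genes at or below the Tak-1 level in them, such as Mp3g08290.

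Neither mutant line held 1 wild-type level across the 83 genes. Each line was placed between the wild types on a log2 scale (pseudocount 0.1 CPM), with 0 at the Tak-1 and 1 at the Tak-2 level. In the male line Mpfer-1, 46 genes (55.4%) lay nearer the male and 37 (44.6%) nearer the female wild-type level. In the female line labelled Mpmri-1, 48 genes (57.8%) lay nearer the male and 35 (42.2%) nearer the female level. The median position was 0.32 in Mpfer-1 and 0.37 in the line labelled Mpmri-1. The lines share the wild types that set this scale, so the positions are descriptions, and 5 and 6 genes, respectively, lay within 0.1 of the midpoint.

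The genes spread over all classes of position. In Mpfer-1, 21 genes were at the male level (within 0.25 of position 0), 7 at the female level (within 0.25 of position 1), 19 between, 19 above both wild types and 17 below both. In the line labelled Mpmri-1, 28 were at the male level, 14 at the female level, 15 between, 16 above both and 10 below both. Set side by side, 36 genes were nearer the male level in both lines and 25 nearer the female level in both. A further 12 were nearer the female level in Mpfer-1 alone and 10 in the line labelled Mpmri-1 alone. Against its own wild type, Mpfer-1 had at least 2 times the Tak-1 level (mean CPM + 0.1) in 40 of the 83 genes, where 13.6% of the 14044 genes tested did, and at most 0.5 times in 10, where 8.06% did. The line labelled Mpmri-1 had at most 0.5 times the Tak-2 level in 51 of the 83 genes, where 11.2% of all genes did, and at least 2 times in 14, where 13.6% did. These comparisons use the libraries that chose the genes, and nothing is read from their distance to the background.

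**Figure D2:**
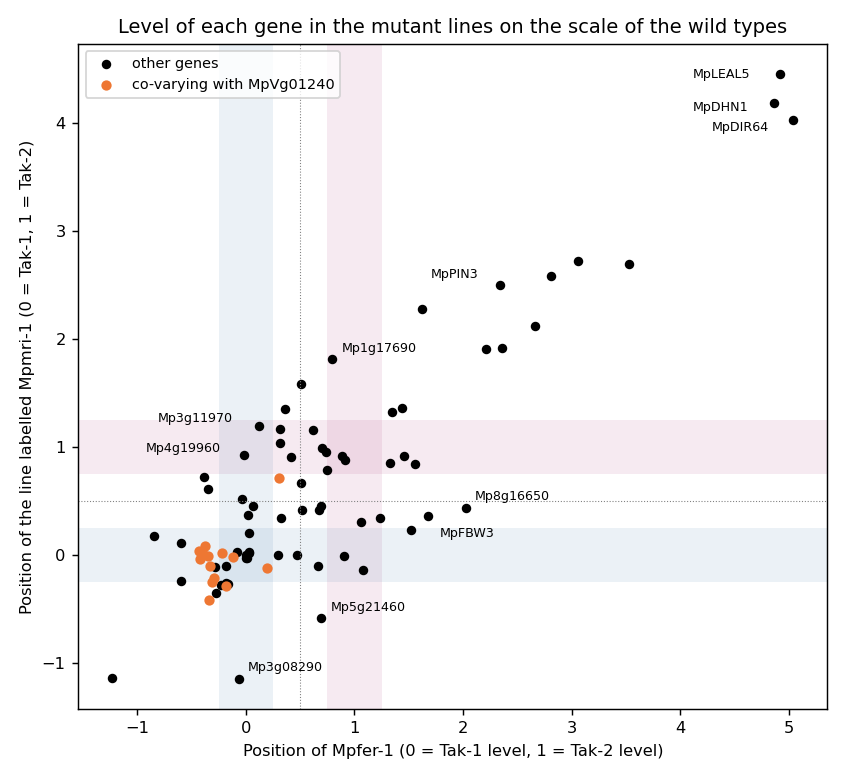
Position of each of the 83 genes in Mpfer-1 (horizontal) and in the line labelled Mpmri-1 (vertical) on the log2 scale set by the wild types, where 0 is the Tak-1 and 1 the Tak-2 level. Blue bands mark the male and red bands the female level (within 0.25), dotted lines the midpoint, and orange points the 14 genes that follow MpVg01240. The 13 genes above both wild types in both lines lie at the upper right, and Mp4g19960 and Mp3g11970 lie near 0 in Mpfer-1 and near 1 in the line labelled Mpmri-1.

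The comparison that used neither wild type for its means set the female line labelled Mpmri-1 against the male line Mpfer-1, and it asked whether a gene higher in the female wild type was also higher in the female line. By edgeR's quasi-likelihood F test, with p-values adjusted by Benjamini-Hochberg over 14044 genes, 28 of the 83 genes (33.7%) rose, where 27.2% of all genes tested rose, and 14 (16.9%) fell, where 24.2% of all genes fell. In either direction 42 of the 83 passed, beside 51.4% of all genes. The low-count filter of this fit used all 4 groups, and 17 of the 83 genes passed it only with the wild types, in which the rule had made them high. Of these 17, 4 rose, 1 fell and 12 did not pass the test, and nothing is read from the shares over all 83. In a fit of the 6 mutant libraries alone, 66 of the 83 genes passed the filter. Of these, 24 (36.4%) rose, where 21.6% of the 13633 genes tested there rose, and 13 (19.7%) fell, where 19.1% did. In either direction 37 of the 66 (56.1%) passed, beside 40.8% of all genes. In the fit over all 12 libraries the median log2 fold change was 0.37 over the 83 genes and 0.0054 over all genes tested. That median includes the 17 genes, and nothing is read from its distance to the value over all genes. In the fit of the 6 mutant libraries the median was 0.51 over the 66 genes and -0.016 over all genes tested there.

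Fold changes of this test are on the TMM scale, whose factors were 1.14 to 1.19 in Mpfer-1 and 0.798 to 0.932 in the line labelled Mpmri-1, while printed CPM are on plain library totals. Ratios of printed CPM are therefore lower than the fitted fold changes. On plain totals the median over all genes tested moved from 0.0054 to -0.42. There 20 of the 83 genes were higher and 19 lower, so that 51.3% of the called genes were higher rather than 66.7%, and over all genes that share was 16.2% rather than 52.9%.

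**Figure D3:**
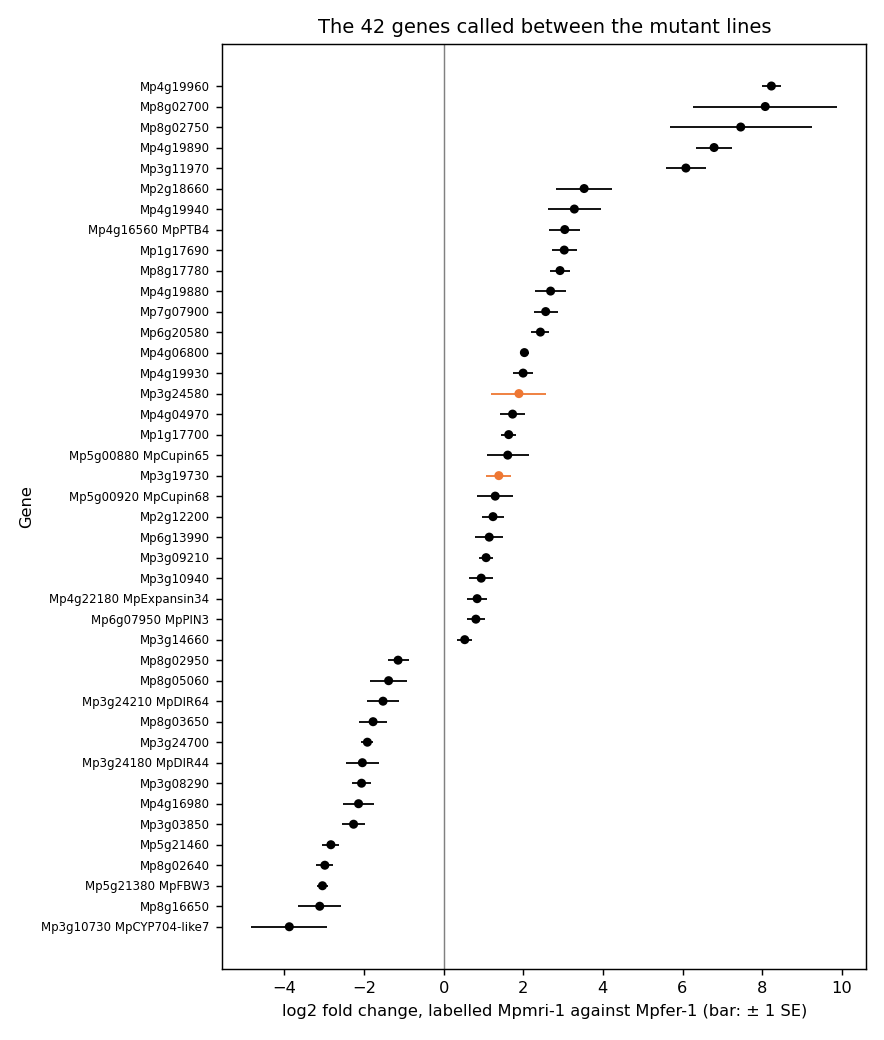
Log2 fold change (± 1 SE, n = 3 libraries a group) of the 42 genes that passed the edgeR test between the line labelled Mpmri-1 and Mpfer-1, with orange for genes that follow MpVg01240. The 28 genes to the right of 0 were higher in the line labelled Mpmri-1, led by Mp4g19960, and the 14 to the left were higher in Mpfer-1.

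The largest group of neighbouring genes stood on chromosome 4, and all 5 of its genes were higher in both female groups than in the male group of the same kind. Members of the 83 with locus numbers at most 100 apart formed 10 groups with 24 genes, of which the largest held Mp4g19880, Mp4g19890, Mp4g19930, Mp4g19940 and Mp4g19960. The order of the wild types was fixed by the rule, so only the order of the lines was free in these genes. All 5 rose in the line labelled Mpmri-1 against Mpfer-1, where 27.2% of all genes tested rose. These 5 genes have no symbol, and no function is given for them here.

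Mp4g19960 had 74.5, 77.7 and 68.6 CPM in Tak-2 replicates A, B and C and 45.4, 60.6 and 41.1 CPM in the line labelled Mpmri-1. It had 0.280, 0.298 and 0.170 CPM in Tak-1 and, in Mpfer-1, 0.172, 0.176 and 0.283 CPM. Every female library was thus far above every male library, and the male groups overlapped each other. Its log2 fold change between the lines was 8.23 (SE 0.24, adjusted p = 1.16e-09, edgeR quasi-likelihood test), and its position was -0.02 in Mpfer-1 and 0.92 in the line labelled Mpmri-1.

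Mp4g19930 had 79.5, 73.1 and 89.0 CPM in Tak-2, replicates at 8.46, 9.47 and 8.11 CPM in the line labelled Mpmri-1, 4.44, 2.73 and 1.70 CPM in Mpfer-1, and 1 count in all of Tak-1. Both lines lay between the wild types, and the line labelled Mpmri-1 was above Mpfer-1 in every library (log2 fold change 1.996, SE 0.25, adjusted p = 8.08e-05, edgeR). Mp4g19940 had 39.3, 43.8 and 63.2 CPM in Tak-2 and 2.36, 1.98 and 2.18 CPM in replicates of the line labelled Mpmri-1. It had 0.105, 0.597 and 0.113 CPM in Tak-1 and, in Mpfer-1, 0, 0.811 and 0.113 CPM. The female line kept a small fraction of the Tak-2 level of this gene and stayed above both male groups. Against Mpfer-1 its log2 fold change was 3.28 (SE 0.67, adjusted p = 0.00176, edgeR), and 5.44 without Mpfer-1 replicate B, the only Mpfer-1 library above 0.113 CPM.

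Mp4g19890 was nearly constant in Tak-2, at 12.3, 12.2 and 12.3 CPM, and had 1.16, 1.63 and 1.04 CPM in the line labelled Mpmri-1. Tak-1 held 3 counts and Mpfer-1 1 count over their 3 libraries. Transcripts of this gene were thus scarcely seen in either male group. The ratio of Tak-2 to Tak-1 was 384, with a 95% counting interval of 131 to 1863, and the log2 fold change between the lines was 6.79 (SE 0.46, adjusted p = 1.07e-06, edgeR), or 8.49 without Mpfer-1 replicate B, which held the 1 count. Mp4g19880 had the lowest Tak-2 CPM of the 5, with 1.21, 0.947 and 0.894 CPM in Tak-2 and 1.35, 2.57 and 1.32 CPM in replicates of the line labelled Mpmri-1. Means were 0.172 CPM in Tak-1 and 0.356 CPM in Mpfer-1, and the log2 fold change between the lines was 2.69 (SE 0.39, adjusted p = 0.000206, edgeR).

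The 4 genes that lie between these in locus number did not share the pattern. Mp4g19900 was lowest in Tak-2, with a mean of 0.556 CPM against means of 14.9 in Tak-1, 101 in Mpfer-1 and 119 in the line labelled Mpmri-1. Mp4g19920 had 1 count in Tak-2 and mean CPM of 0.130 in Tak-1, 2.82 in Mpfer-1 and 0.929 in the line labelled Mpmri-1. Mp4g19950 had 17.6 CPM in Tak-2 and 8.21 CPM in Tak-1, and 2.33 CPM in each line. Mp4g19910 had 0 counts in all 12 libraries. The female-strain genes of this stretch were thus interleaved with genes of other or opposite patterns.

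**Figure D4:**
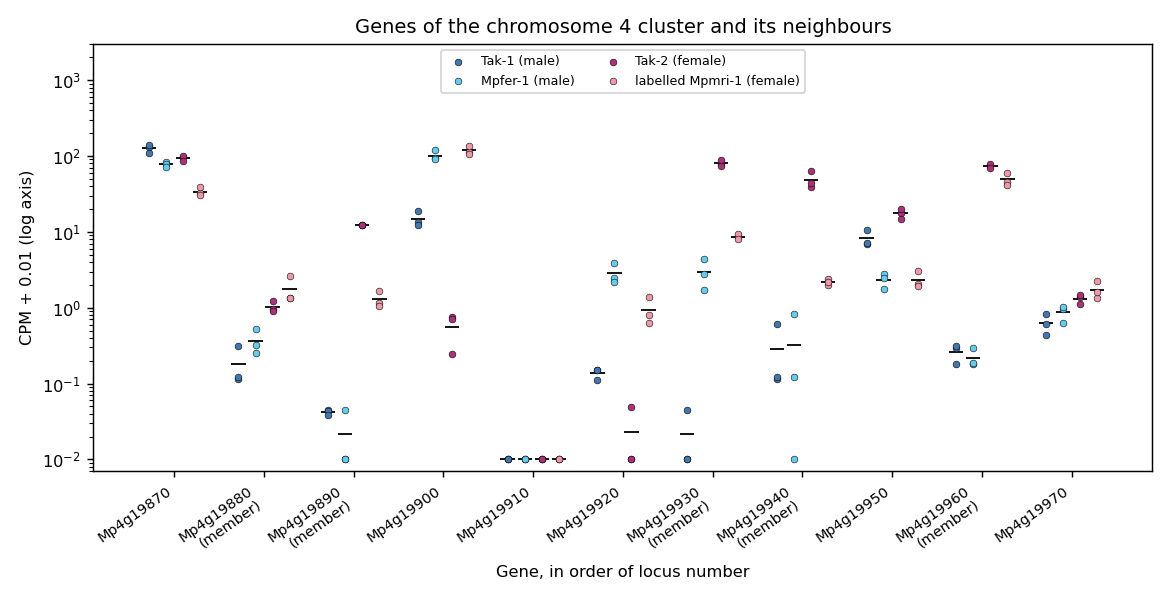
CPM + 0.01 (log axis) of genes with neighbouring locus numbers on chromosome 4, with 1 point per library, short lines for group means and the 5 members marked on the axis. The members are at 0.894 CPM or more in every Tak-2 library, and Mp4g19960 is also at 41.1 CPM or more in every library labelled Mpmri-1, while the genes between them differ in pattern.

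A different set of genes was low in both wild types and higher in both lines. In all, 13 genes lay above both wild types in both lines, with Tak-2 means of at most 10.8 CPM. The lowest ratio of Mpfer-1 to Tak-1 among them was 8.57 and the highest 3305, and the ratios of the line labelled Mpmri-1 to Tak-2 ran from 1.63 to 108. In all 13 every Mpfer-1 library was above every Tak-2 library, and in 12 every library labelled Mpmri-1 was. The class was set by means above Tak-2, so nothing is read from this order. The size of the rise over Tak-2 varied widely, and it was least in Mp3g10470, with mean CPM of 0.571 in Tak-1, 2.87 in Tak-2, 4.89 in Mpfer-1 and 4.69 in the line labelled Mpmri-1. Between the lines 2 rose, 2 fell and 9 did not pass the test, where 27.2% of all genes tested rose and 24.2% fell.

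Genes of drought protection had the highest mean CPM of this set in each line. MpLEAL5 (Mp4g05760), of the late embryogenesis abundant proteins that protect cells as they dry, had 0.420, 0.763 and 0.425 CPM in Tak-1 and, in Tak-2, 2.86, 2.32 and 1.85 CPM. It had 429, 370.3 and 629 CPM in Mpfer-1 and 231, 469 and 60.6 CPM in the line labelled Mpmri-1. All 6 mutant libraries were above all 6 wild-type libraries, with the widest spread in the line labelled Mpmri-1, and the difference between the lines did not pass the test (log2 fold change -0.46, SE 0.51, adjusted p = 0.464, edgeR). MpDHN1 (Mp6g07540), a dehydrin and likewise a drought-protective protein, had 0.280, 0.663 and 0.227 CPM in Tak-1 and, in Tak-2, 2.27, 2.07 and 1.36 CPM. It had 414, 381 and 576 CPM in Mpfer-1 and 175, 293 and 57.6 CPM in the line labelled Mpmri-1. The order of the replicates in the line labelled Mpmri-1 was that of MpLEAL5, highest in B and lowest in C. Its log2 fold change was -0.94 (SE 0.43, adjusted p = 0.0897, edgeR), and -1.49 with an adjusted p of 0.0131 without replicate B of the line labelled Mpmri-1.

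The dirigent genes MpDIR44 (Mp3g24180) and MpDIR64 (Mp3g24210) are near neighbours on chromosome 3, and dirigent proteins guide the coupling of phenolic radicals. MpDIR44 had a mean of 0.0722 CPM in Tak-1 and, in Tak-2, 1.60, 0.772 and 1.32 CPM. It had 212, 241 and 263 CPM in Mpfer-1 and 35.95, 76.1 and 16.3 CPM in the line labelled Mpmri-1. The male line was thus highest of all groups, and the groups of the lines did not overlap. MpDIR44 fell in the line labelled Mpmri-1 against Mpfer-1 (log2 fold change -2.04, SE 0.41, adjusted p = 0.00159, edgeR), and the value was -2.72 without replicate B of that line. MpDIR64 had a mean of 0.261 CPM in Tak-1 and, in Tak-2, 1.64, 1.12 and 1.06 CPM. Its levels were 278, 309 and 335 CPM in Mpfer-1 and 72.4, 133 and 30.6 CPM in the line labelled Mpmri-1. It fell as well (log2 fold change -1.52, SE 0.40, adjusted p = 0.00779, edgeR). Reads of near-identical copies may have been divided between these genes, so their separate levels are uncertain.

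MpPIN3 (Mp6g07950), of the PIN family of auxin efflux carriers, had 2.56, 2.09 and 1.81 CPM in Tak-1 and, in Tak-2, 8.22, 8.14 and 16.2 CPM. It had 103, 86.4 and 82.4 CPM in Mpfer-1 and 113, 146 and 93.2 CPM in the line labelled Mpmri-1. The lines overlapped on this scale. The fitted log2 fold change between the lines was 0.81 (SE 0.23, adjusted p = 0.0121, edgeR), and 0.37 with an adjusted p of 0.184 on plain totals. It was 0.74 with an adjusted p of 0.0509 without Mpfer-1 replicate C. MpPR6c (Mp8g12160), of the PR-6 family of proteinase inhibitors, had means of 0.404 CPM in Tak-1 and 1.93 CPM in Tak-2 and 25.9, 26.9 and 23.4 CPM in Mpfer-1. It had 19.2, 18.3 and 17.97 CPM in the line labelled Mpmri-1, with a log2 fold change of -0.03 between the lines (SE 0.36, adjusted p = 0.957, edgeR).

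Mp6g20580 and Mp7g12620 were the other genes of this set with the highest Tak-2 levels, and neither has a symbol. Mp6g20580 had a mean of 0.989 CPM in Tak-1 and of 8.69 CPM in Tak-2. Libraries of the mutant lines reached more: 39.4, 28.5 and 28.3 CPM in Mpfer-1 and 139, 134 and 109 CPM in the line labelled Mpmri-1. The female line was thus the highest group, with every library above every other, and the gene rose between the lines (log2 fold change 2.43, SE 0.23, adjusted p = 1.25e-05, edgeR). Mp7g12620 had means of 1.33 CPM in Tak-1 and 6.66 CPM in Tak-2, 142, 149 and 202 CPM in Mpfer-1, and 85.6, 166 and 42.9 CPM in the line labelled Mpmri-1. The lines overlapped (log2 fold change -0.30, SE 0.36, adjusted p = 0.502, edgeR), and without replicate B of the line labelled Mpmri-1 the value was -0.88 with an adjusted p of 0.0274.

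At the opposite end, 11 genes were at the male level in both lines and so were high in Tak-2 alone. Of these, 2 rose between the lines and 9 did not pass the test, where 27.2% of all genes tested rose and 24.2% fell. Mp1g01150, MpCupin15, MpASLBD1, MpCE13.2, MpMTPSL19, Mp5g24240 and Mp7g01330 passed the low-count filter only with the wild types. Nothing is therefore read from these counts. Mp2g12200 had 9.94, 9.30 and 16.2 CPM in Tak-2 and, in Tak-1, 0.631, 0.630 and 0.397 CPM. It had 0.551, 0.705 and 0.583 CPM in Mpfer-1 and 1.16, 1.07 and 1.04 CPM in the line labelled Mpmri-1. The female line was low, yet above both male groups in every library (log2 fold change against Mpfer-1 1.24, SE 0.28, adjusted p = 0.00308, edgeR). Mp3g10940 had 10.5, 13.4 and 11.7 CPM in Tak-2 and mean CPM of 0.536 in Tak-1, 0.403 in Mpfer-1 and 0.585 in the line labelled Mpmri-1. Its call between the lines (log2 fold change 0.94, SE 0.31, adjusted p = 0.0227, edgeR) was lost on plain totals, at 0.52 with an adjusted p of 0.148, and without Mpfer-1 replicate B or C or replicate A of the line labelled Mpmri-1, where adjusted p reached 0.125. Mp8g10790 had 22.4, 29.9 and 16.3 CPM in Tak-2, while the means of the 3 other groups lay between 4.73 and 4.94 CPM (log2 fold change between the lines 0.37, SE 0.25, adjusted p = 0.228, edgeR).

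The genes with a symbol at the male level in both lines had lower CPM. MpCE13.2 (Mp3g22160), of a carbohydrate esterase family that holds pectin acetylesterases, had 3.51, 4.03 and 4.70 CPM in Tak-2 against 5 counts in Tak-1, 6 in Mpfer-1 and 4 in the line labelled Mpmri-1. MpASLBD1 (Mp3g16240), of the AS2/LOB-domain transcription factors of plants, had 1.06, 0.842 and 1.22 CPM in Tak-2 and 2, 3 and 3 counts in Tak-1, Mpfer-1 and the libraries labelled Mpmri-1. MpCupin15 (Mp2g01920), of the cupin family with its conserved barrel fold, had mean CPM of 1.43 in Tak-2, 0.312 in Tak-1, 0.224 in Mpfer-1 and 0.261 in the line labelled Mpmri-1. In these 3 genes every Tak-2 library was above every other library, and none passed the test between the lines (edgeR adjusted p between 0.279 and 0.932). All 3 passed the low-count filter only with the wild types, and their few counts in the lines cannot show that the lines were equal.

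Transcripts of Mp7g01330 were found in Tak-2 alone. It had 1.253, 2.56 and 1.52 CPM in Tak-2, 151 counts in all, and 0 counts in each of the 9 other libraries. Against 3 counts over the group, the limit that a count of 0 allows, Tak-2 was at least 55.7-fold higher than Tak-1, at least 55.0-fold higher than Mpfer-1 and at least 55.2-fold higher than the libraries labelled Mpmri-1. Both lines would need at least some counts for a comparison between them, so none is given.

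MpExpansin34 (Mp4g22180), of the expansins that loosen cell walls, and the neighbouring cupin genes MpCupin65 (Mp5g00880) and MpCupin68 (Mp5g00920) were likewise highest in Tak-2. MpExpansin34 had 17.6, 17.5 and 11.8 CPM in Tak-2 and, in Tak-1, 2.70, 3.32 and 2.95 CPM. It had 1.24, 2.22 and 2.07 CPM in Mpfer-1 and 2.32, 2.75 and 2.33 CPM in the line labelled Mpmri-1. Every library labelled Mpmri-1 was above every Mpfer-1 library (log2 fold change 0.84, SE 0.24, adjusted p = 0.0128, edgeR), a call lost on plain totals (0.42, adjusted p = 0.132). MpCupin68 had 11.7, 6.12 and 17.95 CPM in Tak-2, with mean CPM of 2.48 in Tak-1, 0.930 in Mpfer-1 and 1.68 in the line labelled Mpmri-1. MpCupin65 had lower CPM, with mean CPM of 1.10 in Tak-2, 0.142 in Tak-1, 0.167 in Mpfer-1 and 0.402 in the line labelled Mpmri-1. Both cupin genes passed the test between the lines (log2 fold changes of 1.30 and 1.61, SE 0.45 and 0.53, adjusted p = 0.0306 and 0.0239, edgeR), but adjusted p rose to 0.103 and 0.0699 on plain totals. Leaving out Mpfer-1 replicate A, or replicate A or C of the line labelled Mpmri-1, also lost either call, with adjusted p up to 0.123 and 0.114, as did Mpfer-1 C for MpCupin68 and Mpfer-1 B for MpCupin65. MpCupin65 passed the low-count filter only with the wild types. Reads may be divided between such related genes.

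The female level in both lines was rare. It was met by 2 genes, MpPOD49 (Mp4g16740), a class III peroxidase of the kind that acts in cell walls, and Mp7g10880. MpPOD49 had 0.822, 2.46 and 1.79 CPM in Tak-2, 1.69, 1.62 and 0.736 CPM in Mpfer-1 and 0.786, 1.30 and 1.53 CPM in the line labelled Mpmri-1, against 4 counts in Tak-1. Mp7g10880 had 2.99, 3.32 and 3.62 CPM in Tak-2, 2.35, 3.02 and 2.43 CPM in Mpfer-1 and 1.78, 3.51 and 3.11 CPM in the line labelled Mpmri-1, against 0.308, 0.328 and 0.496 CPM in Tak-1. The 3 groups overlapped in MpPOD49, and Tak-1 was below all of them in both genes. Log2 fold changes between the lines were 0.28 (SE 0.42, adjusted p = 0.606) for MpPOD49 and 0.53 (SE 0.23, adjusted p = 0.069) for Mp7g10880 by edgeR, the latter 0.72 with an adjusted p of 0.0172 without replicate A of the line labelled Mpmri-1.

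The genes that fell between the lines ran against the order of the wild types. On plain library totals all 14 had every Tak-2 library above every Tak-1 library and every library labelled Mpmri-1 below every Mpfer-1 library. These orders were not scored on the TMM scale of the test, on which the lines lie closer in such genes. The order of the wild types was fixed by the rule. The count of 14 is thus the count of genes that fell, 16.9% of the 83 beside 24.2% of all genes tested. The difference between these orders was not tested. At the female level or above in Mpfer-1 and the male level or below in the line labelled Mpmri-1 were 3 of them: Mp4g16980, Mp8g02640 and Mp8g03650.

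MpFBW3 (Mp5g21380) showed the reversal with little spread. It had 1.75, 1.95 and 2.45 CPM in Tak-1 and, in Tak-2, 12.1, 13.2 and 13.8 CPM. It had 47.2, 42.8 and 45.3 CPM in Mpfer-1 and 3.85, 4.39 and 3.96 CPM in the line labelled Mpmri-1. No groups overlapped, and the order from lowest to highest was Tak-1, the line labelled Mpmri-1, Tak-2 and Mpfer-1. The log2 fold change between the lines was -3.04 (SE 0.13, adjusted p = 9.16e-09, edgeR).

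Its neighbour Mp5g21460, without a symbol, was one of the 8 genes with the highest Tak-2 CPM. It had 33.3, 20.4 and 36.6 CPM in Tak-1 and, in Tak-2, 176, 178 and 174 CPM. It had 105, 119 and 83.2 CPM in Mpfer-1 and 11.1, 10.2 and 10.8 CPM in the line labelled Mpmri-1. The female line was below even the male wild type in every library, and Mpfer-1 lay between the wild types. The log2 fold change between the lines was -2.83 (SE 0.21, adjusted p = 2.38e-06, edgeR). Mp3g24700 had 9.39, 9.91 and 13.0 CPM in Tak-1, 94.6, 93.2 and 93.4 CPM in Tak-2, 103, 115 and 99.2 CPM in Mpfer-1 and 22.3, 16.9 and 23.4 CPM in the line labelled Mpmri-1. On plain totals every Mpfer-1 library was above every Tak-2 library. That order rests on this scale, since TMM factors were 1.14 to 1.19 in Mpfer-1 and 0.940 to 0.974 in Tak-2. The female line lay nearer the male level (log2 fold change against Mpfer-1 -1.92, SE 0.15, adjusted p = 4.13e-06, edgeR).

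Chromosome 8 held 6 of the 83 genes among its low locus numbers, in 2 opposite patterns. Mp8g02640 had means of 1.30 CPM in Tak-1 and 8.28 CPM in Tak-2, with 16.7, 24.6 and 22.4 CPM in Mpfer-1 and 2.11, 1.75 and 2.19 CPM in the line labelled Mpmri-1 (log2 fold change -2.98, SE 0.21, adjusted p = 1.38e-06, edgeR). Mp8g02950 had mean CPM of 2.38 in Tak-1, 6.10 in Mpfer-1, 9.79 in Tak-2 and 2.07 in the line labelled Mpmri-1, and Mp8g03650 had 0.360, 1.65, 1.93 and 0.355 in the same order. Both also fell, with log2 fold changes of -1.14 (SE 0.26, adjusted p = 0.00379) and -1.77 (SE 0.34, adjusted p = 0.00136) in the edgeR test. Mp8g02700 and Mp8g02750, in contrast, had 0 counts in Mpfer-1. Mp8g02700 had 4.04, 2.25 and 1.89 CPM in Tak-2, a mean of 0.137 CPM in Tak-1, and replicates at 0.861, 0.0296 and 2.01 CPM in the line labelled Mpmri-1. Mp8g02750 had 1.26, 0.977 and 1.10 CPM in Tak-2, a mean of 0.0994 CPM in Tak-1, and replicates at 0.473, 0 and 1.41 CPM in the line labelled Mpmri-1. Replicate B of that line was near or at 0 in both genes. Against 3 counts over the group, the line labelled Mpmri-1 was at least 29.9-fold and at least 19.4-fold higher than Mpfer-1. Both passed the edgeR test (adjusted p = 0.00449 and 0.00645, 0.00016 and 0.000105 without replicate B and 0.0124 and 0.019 without replicate C of the line labelled Mpmri-1). They passed the low-count filter only with the wild types, in which the rule had made them high, and were not tested in the fit of the mutant libraries alone.

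The remaining falls were among genes of low CPM. Mp4g16980 had mean CPM of 0.490 in Tak-1, 2.39 in Mpfer-1, 2.13 in Tak-2 and 0.390 in the line labelled Mpmri-1 (log2 fold change -2.14, SE 0.38, adjusted p = 0.000765, edgeR). Mp3g03850 had 5 counts in Tak-1 but 8.72, 8.00 and 7.02 CPM in Mpfer-1, with mean CPM of 1.85 in Tak-2 and 1.22 in the line labelled Mpmri-1 (-2.26, SE 0.28, adjusted p = 7.83e-05, edgeR). Mp8g16650 had mean CPM of 0.177 in Tak-1, 4.86 in Mpfer-1, 1.05 in Tak-2 and 0.417 in the line labelled Mpmri-1 (-3.11, SE 0.54, adjusted p = 0.000688, edgeR). In both of these the male line was the highest group. Mp3g08290 was at the male level in Mpfer-1, with 1.52 CPM against 1.67 CPM in Tak-1 and 6.88 CPM in Tak-2, and lower still in the line labelled Mpmri-1, with 0.267 CPM (-2.06, SE 0.24, adjusted p = 5.29e-05, edgeR). MpCYP704-like7 (Mp3g10730), a cytochrome P450, had a mean of 1.27 CPM in Tak-2, 26 counts in Mpfer-1 and 1 count each in Tak-1 and the libraries labelled Mpmri-1. It fell, with a log2 fold change of -3.88 (SE 0.95, adjusted p = 0.00539, edgeR), a value that became -5.92 without replicate A of the line labelled Mpmri-1, which held its 1 count. This gene passed the low-count filter only with the wild types. Mp8g05060, on chromosome 8, had 2.14, 8.39 and 4.13 CPM in Mpfer-1 and 1.16, 1.75 and 1.29 CPM in the line labelled Mpmri-1, with mean CPM of 0.845 in Tak-1 and 3.55 in Tak-2 (-1.38, SE 0.46, adjusted p = 0.0261, edgeR).

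Other rises were spread over the genome. Mp3g11970 had 3.03, 1.74 and 2.74 CPM in Tak-2 and 4.99, 3.79 and 5.04 CPM in replicates of the line labelled Mpmri-1, against 3 counts in Tak-1 and 8 in Mpfer-1. With Mp4g19960 it was one of 2 genes at the female level in the female line and the male level in the male line, and its log2 fold change between the lines was 6.08 (SE 0.50, adjusted p = 4.89e-06, edgeR), or 6.91 without Mpfer-1 replicate B. Mp1g17690 had 10.9, 9.16 and 19.8 CPM in Tak-1, 76.2, 57.5 and 101 CPM in Tak-2, 43.2, 53.6 and 67.5 CPM in Mpfer-1 and 372, 327 and 292 CPM in the line labelled Mpmri-1. The female line was above every other library, and Tak-2 and Mpfer-1 overlapped (log2 fold change between the lines 3.03, SE 0.31, adjusted p = 2.34e-05, edgeR). MpPTB4 (Mp4g16560) had mean CPM of 0.277 in Tak-1, 0.735 in Mpfer-1, 1.71 in Tak-2 and 4.42 in the line labelled Mpmri-1 and rose between the lines (3.04, SE 0.39, adjusted p = 9.02e-05, edgeR). Mp2g18660 had mean CPM of 0.375 in Tak-1, 0.0518 in Mpfer-1, 1.73 in Tak-2 and 0.505 in the line labelled Mpmri-1 and rose as well (3.53, SE 0.70, adjusted p = 0.00151, edgeR). That gene had 5 counts in Mpfer-1, and it too passed the low-count filter only with the wild types.

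Mp8g17780 had the highest Tak-2 mean of the 83 genes in CPM. It had 435, 491 and 415 CPM in Tak-2 and, in Tak-1, 49.0, 42.9 and 31.2 CPM. It had 10.4, 11.1 and 7.504 CPM in Mpfer-1 and 71.6, 47.1 and 41.9 CPM in the line labelled Mpmri-1. The female line overlapped the male wild type, and the male line lay below it in every library. The log2 fold change between the lines was 2.92 (SE 0.26, adjusted p = 7.66e-06, edgeR).

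Mp1g14480 had 71.9, 71.3 and 59.2 CPM in Tak-1, 279.7, 279.9 and 311 CPM in Tak-2, 104, 92.3 and 116 CPM in Mpfer-1 and 56.9, 76.4 and 68.3 CPM in the line labelled Mpmri-1. The female line overlapped the male wild type and Mpfer-1 was slightly above it. Between the lines its log2 fold change was -0.21 (SE 0.10, adjusted p = 0.101, edgeR), and -0.63 with an adjusted p of 0.000932 on plain totals. It was -0.30 and -0.31, with adjusted p of 0.042 and 0.0252, without Mpfer-1 replicate B and without replicate B of the line labelled Mpmri-1. MpMLS5 (Mp8g16290) had 30.3, 23.2 and 28.3 CPM in Tak-2 and mean CPM of 3.94 in Tak-1, 10.8 in Mpfer-1 and 8.93 in the line labelled Mpmri-1, and the lines overlapped (0.17, SE 0.43, adjusted p = 0.757, edgeR).

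A further set of genes varied between replicate libraries in step with MpVg01240, a transcript whose identifier places it on the male V chromosome but whose CPM was highest in the female wild type. MpVg01240 had 9701, 14905 and 6526 CPM in Tak-2, where it ranked 2 by mean CPM among all genes, and 192, 1092 and 1891 CPM in Tak-1. It had 180, 430.4 and 353 CPM in Mpfer-1 and 1069, 356 and 367 CPM in the line labelled Mpmri-1. Tak-2 was above every other library, and the Tak-1 replicates differed 9.85-fold among themselves. The highest of the other V-linked genes had a Tak-2 mean of 33.8 CPM. The identifier is absent from the reference table used for symbols, and no function is given here. That table is of an assembly named for the female strain (MpTak2_v7.1), and whether it holds other V-linked genes is not given here.

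Of the 83 genes, 14 (16.9%) had a Pearson r of at least 0.7 with MpVg01240 in their deviations from the group means of log2(CPM + 0.1) over the 12 libraries. Among genes above 2 CPM in a library, 11 of 74 members of the 83 (14.9%) did, and 74 of 12480 other genes (0.593%). The deviations share the library totals, the set was noticed in these data, and r is a description. MpVg01240 was itself 9.81 times higher in Tak-2 than in Tak-1, so a gene in step with it would tend to meet the rule. Nothing is therefore read from the difference between these shares. The lowest r among the 14 was 0.73, that of MpMTPSL19, and the highest 0.99, and the highest among the remaining 69 genes was 0.67. In 8 of the 14 the counts per 1000 counts of MpVg01240 stayed within 4-fold over all 12 libraries, although MpVg01240 itself ranged 82.8-fold. These 8 were Mp1g09910, Mp2g00390, Mp3g13560, Mp3g24580, Mp4g03650, Mp5g04270, Mp5g10950 and Mp8g18790. In the other 6 the range was over 4-fold or undefined, and it reached 27.1-fold in Mp3g19730. Those 6 thus followed MpVg01240 in their deviations within groups but did not keep a fixed share of it.

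Mp5g10950, the highest of the 14 in Tak-2 CPM, had 132, 217 and 119 CPM in Tak-2 and, in Tak-1, 3.47, 18.2 and 28.7 CPM. It had 5.203, 10.5 and 9.54 CPM in Mpfer-1 and 14.9, 7.10 and 6.54 CPM in the line labelled Mpmri-1. In each group its highest library was that of MpVg01240: B highest in Tak-2, C highest in Tak-1, B highest in Mpfer-1 and A highest in the line labelled Mpmri-1. Per 1000 counts of MpVg01240 it had 13.6 to 28.9 counts. Mp3g13560 had 48.3, 81.8 and 40.2 CPM in Tak-2, 2.07, 7.63 and 12.5 CPM in Tak-1, 2.24, 5.501 and 3.54 CPM in Mpfer-1 and 10.5, 4.02 and 3.44 CPM in the line labelled Mpmri-1, in the order of MpVg01240 in every group except for B and C of that line. Mp4g03650 had 45.2, 75.2 and 35.3 CPM in Tak-2 and, in Tak-1, 1.33, 7.46 and 10.9 CPM, and 4.66 to 12.5 counts per 1000 of MpVg01240. Outside the 83 genes, Mp6g09310, whose Tak-2 mean of 2032 CPM is above the upper limit of the rule, held 175 to 231 counts per 1000 of MpVg01240 in every library.

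The 14 genes were unevenly spread over the positions given above. Of the 36 genes nearer the male level in both lines, 13 were among the 14, and of the 31 at the male level or below in both lines 13 were too. None of the 25 nearer the female level in both lines was. Between the lines 2 of the 14 rose, Mp3g24580 (log2 fold change 1.89, SE 0.69, adjusted p = 0.0374, edgeR) and Mp3g19730 (1.39, SE 0.32, adjusted p = 0.00361, edgeR), and 12 did not pass. Of all genes tested 27.2% rose and 24.2% fell. Mp1g01150, Mp3g20630 and MpMTPSL19 of the 14 passed the low-count filter only with the wild types. Without the 14 genes and MpVg01240, Mp6g09310 and Mp8g12450 in the fit, 26 of the remaining 69 genes rose and 14 fell. Of the 14027 genes tested in that fit, 3821 rose and 3401 fell. Its low-count filter also used all 4 groups, and nothing is read from the counts among the 69.

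**Figure D5:**
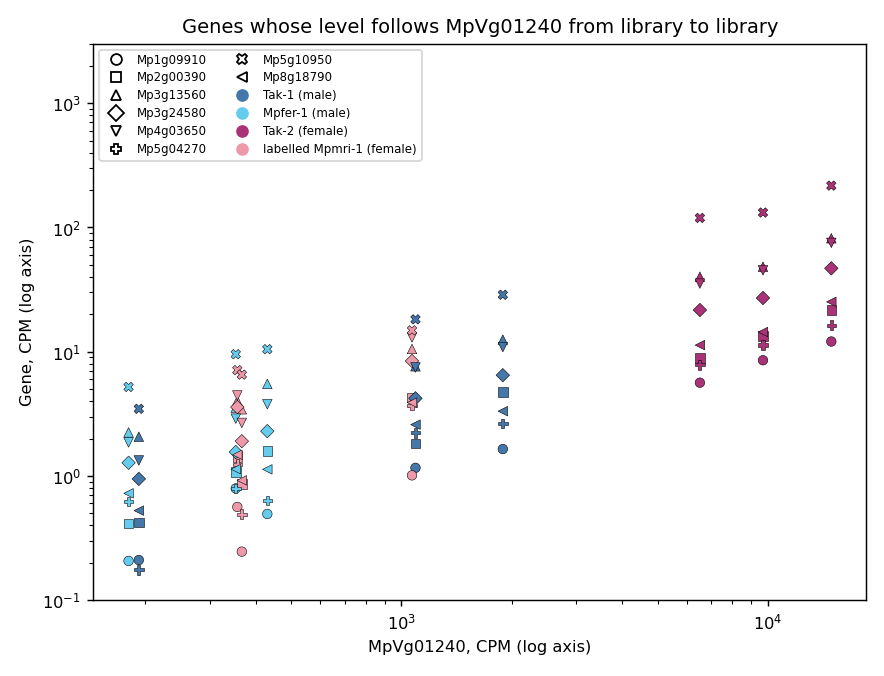
CPM of the 8 genes whose counts stay within 4-fold of a fixed share of MpVg01240 (vertical, log axis) against the CPM of MpVg01240 (horizontal, log axis), with 1 point per gene and library, shape for the gene and colour for the group. Points of each gene follow MpVg01240 from 180 CPM in Mpfer-1 replicate A to 14905 CPM in Tak-2 replicate B, within groups as well as between them.

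The 83 genes lay on all 8 autosomes. As a share of genes in the expression range, chromosome 3 held most (20 of 1584, 1.26%), followed by chromosomes 4 (16 of 1479, 1.08%) and 8 (12 of 1114, 1.08%). Chromosome 5 held 10 of 1411 (0.709%), chromosome 6 6 of 1276 (0.470%), chromosome 1 9 of 2125 (0.424%), chromosome 7 5 of 1222 (0.409%) and chromosome 2 5 of 1585 (0.315%). The genes of 1 group of neighbours did not always move together: Mp3g24580 followed MpVg01240, while Mp3g24550 beside it lay above both wild types in both lines.

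Genes without a counterpart in the reference table by locus number made up 13 of the 83 (15.7%), where 132 of the 11796 genes in the range (1.12%) lacked one. Of these 13, 10 were at the male level or below in both lines and 5 followed MpVg01240. For these 13 genes and MpVg01240 the chromosome rests on the identifier alone, and whether their counts come from transcripts of those loci was not tested. A single transcript model was listed for 78 of the 83 genes.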

How the data were processed

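Stranded mRNA libraries of 12 samples (4 groups of 3) were made by the submitters with added spike-in RNA, per the labels' protocols. A single table of estimated counts was deposited, with 23399 transcript models and no scaling across libraries. FastQC, fastp and DESeq2 are named in the submitters' processing notes, and neither the quantifier nor the genome build and annotation is stated there (not given in the sources used here). Whole values, within 1e-09, made up 65.5%. Columns matched samples by name.

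Models were summed to genes and rounded (a change of at most 0.5). Totals of 25548031 to 35313206 counts set the precision, and counting intervals (95%, exact Clopper-Pearson) and floors of 3 counts per group cover counting error only. Levels are CPM on column totals. The line contrast was tested with edgeR 4.0.16 in R 4.3.3 (glmQLFit, glmQLFTest, TMM factors, default filter on low counts by group, 1 mean per group over all 12 libraries), Benjamini-Hochberg over 14044 genes, called under 0.05. The pipeline was tested on simulated data. Standard errors are the log2 fold change over the square root of F. Alternatives used DESeq2 1.42.0 and limma 3.58.1.

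The 83 genes, gene lists and tests were chosen with earlier results of these data known. Named genes are those with a symbol, the 8 highest in Tak-2, the 6 largest called rises and falls, up to 3 per class of position by Tak-2 level, the chromosome 4 group and 3 on each side of the threshold. Other genes named were chosen after their values were seen. Symbols come from the RefSeq table of assembly MpTak2_v7.1, joined by locus number, and no coordinates or sequences are printed. The 83 genes all passed the filter, which uses all 4 groups, 17 of them only with the wild types.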

Additional observations from a re-analysis of the deposited data

Results flagged for a closer look

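Of the 83 genes, 14 ran in opposite orders in the wild types and in the lines, with a call by edgeR. On plain library totals every Tak-2 library was above every Tak-1 library, and every library labelled Mpmri-1 was below every Mpfer-1 library. These orders were not scored on the TMM scale of the test. The order of the wild types was fixed by the choice of the genes. The count of 14 is thus the number that fell between the lines, 16.9% of the 83 beside 24.2% of all genes tested. The difference between the orders was not tested. They are Mp3g03850, Mp3g08290, MpCYP704-like7, MpDIR44, MpDIR64, Mp3g24700, Mp4g16980, MpFBW3, Mp5g21460, Mp8g02640, Mp8g02950, Mp8g03650, Mp8g05060 and Mp8g16650.

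MpVg01240 is not autosomal by its identifier and so lies outside the measurement of the 83 genes. It had a mean of 10377.3 CPM in Tak-2, a female strain. Its means were 1058 in Tak-1, 321 in Mpfer-1 and 597 in the line labelled Mpmri-1. Other V-linked genes summed to 61.2 to 69.5 CPM in the Tak-2 libraries. Its part in the levels of the 14 genes that follow it was not tested.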

How the results depend on the processing

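A ratio of at least 8 took 33 genes in place of 83, CPM on TMM-scaled totals took 95, which held all 83, and a minimum of 2 CPM took 57. Leaving out 1 library at a time took 77 to 88 genes. Counts of genes nearer the female level ran from 34 to 37 in Mpfer-1 and 35 to 37 in the line labelled Mpmri-1 without 1 library. They were 31 and 32 with a linear midpoint. With CPM on TMM-scaled totals they were 34 and 38, in place of 37 and 35 on plain totals, so the order of the lines depends on the scale.

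Between the lines, plain totals gave 1446 higher and 7477 lower genes of all tested, and a median log2 fold change of 0 over the 83 genes, whose counts were 20 higher and 19 lower. Without 1 library at a time, 22 to 32 of the 83 were higher and 13 to 18 lower, 3076 to 3930 and 2749 to 3625 of all genes were, and the median was 0.34 to 0.58. DESeq2 called 29 higher and 14 lower, limma 25 and 15, and a fit of the 6 mutant libraries 24 and 13 of the 66 that passed its filter, beside 2948 and 2608 of all 13633 genes. Deviations of libraries with the same letter correlated at -0.26 to 0.20, over 0.1 in 3 of 18 pairs. They were 0.05 to 0.17 for Tak-1 with Mpfer-1 and 0.07 to 0.20 for Tak-2 with the line labelled Mpmri-1. In the other pairs of groups they were -0.26 to 0.07. The labels do not say whether the letters pair the samples, and these values cannot settle it. With the letter as a replicate block, 27 rose and 14 fell, with a median of 0.39.

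Of the 46 named genes, 32 were called, and 27 of these kept the call under every alternative that tested them. None of the 32 called genes changed sign under an alternative, while 9 of the named genes that were not called did, without a call in either setting. The exceptions were Mp3g10940 (0.067 by limma and 0.0865 in the mutant libraries alone, as adjusted p), MpCupin68 (0.143 by limma), MpCupin65, MpExpansin34 and MpPIN3. MpDHN1 passed on plain totals (-1.39, adjusted p = 0.0139) and by limma. The cause was not tested.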
